A study of Mus musculus with 4 samples.

Results

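The CXC ligand genes of mouse chromosome 5 form 2 clusters, and the accessible chromatin assigned to them in large peritoneal macrophages (LPMs) is described here. Cxcl5, Ppbp, Pf4, Cxcl3, Cxcl1 and Cxcl2 lie within 147 kb, and Cxcl9, Cxcl10 and Cxcl11 lie within 42.0 kb, 1.42 Mb further along the chromosome. Peaks of the 4 ATAC-seq libraries that shared 1 bp or more were merged, and a merged region was assigned to a member when its midpoint was nearest to that gene's transcription start site (TSS) or when it overlapped the gene body. By this rule 29 of 70744 regions belonged to the 9 genes. ATAC-seq marks open chromatin through cuts made by the transposase Tn5. LPMs were sorted from 9-week-old C57BL/6 mice of 2 genotypes, with 40000 cells and 2 libraries each. Rxrab fl/fl mice (replicates 1 and 3) carry floxed Rxra and Rxrb alleles without Cre. LysMCre+ Rxrab fl/fl mice (replicates 1 and 2) carry the same alleles and Cre driven from the LysM locus, which is active in macrophages and in other myeloid cells, so that the presence of Cre and the loss of both receptors cannot be told apart. They are called control and RXR-deficient LPMs from here on. All libraries have the same library batch in the labels, which name no animal and no pooling, so p values measure only the spread between these libraries. The study left out ATAC-seq samples that did not cluster with their group.

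CXC chemokines are small secreted proteins that direct leukocytes through G protein-coupled receptors. Cxcl1, Cxcl2, Cxcl3, Cxcl5 and Ppbp carry the ELR motif, act mainly through Cxcr2 and attract neutrophils, whereas Cxcl9, Cxcl10 and Cxcl11 are induced by interferons and attract T and NK cells through Cxcr3. Pf4 and Ppbp are best known as proteins of platelet granules. In macrophages NF-kB induces several of these genes after contact with microbial products, and interferon-stimulated factors bind ISRE elements in the promoters of the second cluster. RXRs bind direct repeats of a short half-site, as RAR:RXR heterodimers at DR5 elements and as homodimers, or as heterodimers with other receptors, at DR1 elements.

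The libraries differed in the number of peaks, and control replicate 3 stood apart. It had 16097 peaks, against 38048 in control replicate 1 and 65421 and 55581 in RXR-deficient replicates 1 and 2. The pileup is the number of overlapping tags at a summit, solved here from a peak's p value and fold enrichment, the pileup divided by that of the local background. Over the 15199 regions shared by all 4 libraries, its median was 97 and 20 in control LPMs and 99 and 65 in RXR-deficient LPMs. The lowest background of a library, which follows its number of tags, was 1.97 and 1.06 in control LPMs and 1.33 and 1.08 in RXR-deficient LPMs. The labelled cell type was checked on lists of marker genes. A TSS counted as called in a library when the merged region over it held a peak of that library. Whether that peak itself reached the TSS was not tested. All 6 LPM markers (such as Gata6, Timd4 and Icam2) had a called TSS in each library except control replicate 3, which had 5. Of 7 macrophage markers, 5 and 5 had a called TSS in control LPMs and 6 and 6 in RXR-deficient LPMs. The TSS of Csf1r was called in no library, and that of Itgam only in RXR-deficient LPMs. None of 4 B cell, 4 T cell, 4 mesothelial and 6 megakaryocyte or platelet markers had a called TSS in any library, and 6 neutrophil markers had 1 and 0 in control LPMs and 2 and 1 in RXR-deficient LPMs. Regions assigned to the mesothelial markers, none at a TSS, numbered 1 and 1 in control LPMs and 7 and 7 in RXR-deficient LPMs. All regions numbered 36800 and 15478 in control LPMs and 64159 and 54633 in RXR-deficient LPMs. Of the 8 mesothelial marker regions, 5 were called in both RXR-deficient libraries alone (62.5%), against 22.8% of all regions. The one in all 4 libraries, of Upk3b, had a log2 difference of 0.62 in fold enrichment and 0.99 in the pileup. Of 9 markers of small peritoneal macrophages or monocytes, 4 and 1 had a called TSS in control and 8 and 8 in RXR-deficient LPMs. Of all 12469 regions with a midpoint at most 1 kb before or 200 bp after a TSS, control LPMs had 10217 and 7059. RXR-deficient LPMs had 12051 and 11362. The part of mesothelial cells, small peritoneal macrophages or monocytes in the results below was not tested. In sorted bulk cells, a change in which cells are present and a change in each cell cannot be told apart.

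The promoters of members on which the results turn are shown first, from 250 bases before to 50 after the TSS, 5′ to 3′ on the gene's strand. RefSeq (GRCm38.p6) promoter sequences were found for 7 of the 9 members and were identical to the genome of the build used. Cxcl5 and Cxcl11 had no entry. Capitals mark matches on either strand to any of 9 motifs. NF-kB, DR1 and DR5 were searched by their degenerate consensus. The others were GAAANNGAA (the ISRE core), TTCNNNGAA (the GAS element), TGANTCA (the element of AP-1), TTGCNNAA (that of C/EBP), AGATAA (called GATA from here on) and GAGGAAGT (PU.1/ETS). No matches of different motifs overlapped in these sequences. Cxcl1, Cxcl2 and Cxcl3 (all + strand) are shown because they share an NF-kB match. The TSS of Cxcl1 and Cxcl2 was called in all libraries, and that of Cxcl3 in none, which does not show closed chromatin.
Cxcl1, chr5:90890995-90891294: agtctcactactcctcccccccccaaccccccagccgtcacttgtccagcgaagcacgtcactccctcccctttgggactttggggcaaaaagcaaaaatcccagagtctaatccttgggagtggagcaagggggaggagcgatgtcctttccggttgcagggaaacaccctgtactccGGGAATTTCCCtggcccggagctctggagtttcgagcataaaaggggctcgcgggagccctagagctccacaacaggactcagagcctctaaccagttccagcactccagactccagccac
Cxcl2, chr5:90903649-90903948: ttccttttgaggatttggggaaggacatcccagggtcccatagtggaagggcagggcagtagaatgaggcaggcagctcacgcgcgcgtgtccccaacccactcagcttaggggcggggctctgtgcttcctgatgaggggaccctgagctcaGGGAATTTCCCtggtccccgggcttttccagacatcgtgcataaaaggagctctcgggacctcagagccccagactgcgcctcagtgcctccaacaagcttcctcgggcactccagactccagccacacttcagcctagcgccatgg
Cxcl3, chr5:90785851-90786150: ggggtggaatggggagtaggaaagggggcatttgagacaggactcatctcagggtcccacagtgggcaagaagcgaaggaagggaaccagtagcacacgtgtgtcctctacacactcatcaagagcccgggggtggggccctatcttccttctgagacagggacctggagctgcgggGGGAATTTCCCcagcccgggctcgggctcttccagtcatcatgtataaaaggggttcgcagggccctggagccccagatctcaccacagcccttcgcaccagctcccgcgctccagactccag

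In all 3 promoters the capitals are NF-kB matches, on both strands and shifted by 1 base. Positions are counted from the TSS, with the base before it as −1. The matches spanned −71 to −61 in Cxcl1, −97 to −87 in Cxcl2 and −73 to −63 in Cxcl3. Cxcl1 and Cxcl2 also shared an identical run of 20 bases that began 31 and 11 bases into the transcript, and each shared a run of 13 bases with Cxcl3. The run of 20 ends at the last base read in Cxcl1 and that of 13 at the last base read in Cxcl3, so both are minimum lengths. The GC content of these promoters was 58.7, 60.7 and 61.0%, above the median of 52.7% over all 32851 promoters.

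Cxcl10 (− strand) and Pf4 (+ strand) are shown because their TSS was also called in all 4 libraries, and Ppbp (+ strand) because it lacked a region at its TSS and holds the only DR5 match.
Cxcl10, chr5:92348840-92349139: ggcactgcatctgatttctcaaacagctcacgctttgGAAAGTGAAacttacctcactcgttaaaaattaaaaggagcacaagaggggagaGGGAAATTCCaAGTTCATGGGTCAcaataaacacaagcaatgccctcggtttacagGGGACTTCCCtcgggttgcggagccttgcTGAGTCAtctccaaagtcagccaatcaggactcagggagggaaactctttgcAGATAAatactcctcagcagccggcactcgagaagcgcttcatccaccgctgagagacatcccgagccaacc
Pf4, chr5:90772185-90772484: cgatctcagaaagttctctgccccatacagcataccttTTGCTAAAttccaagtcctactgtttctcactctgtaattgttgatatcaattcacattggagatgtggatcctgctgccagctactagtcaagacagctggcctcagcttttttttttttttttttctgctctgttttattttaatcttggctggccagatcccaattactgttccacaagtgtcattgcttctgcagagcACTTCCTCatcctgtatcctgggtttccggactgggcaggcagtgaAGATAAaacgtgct
Ppbp, chr5:90768268-90768567: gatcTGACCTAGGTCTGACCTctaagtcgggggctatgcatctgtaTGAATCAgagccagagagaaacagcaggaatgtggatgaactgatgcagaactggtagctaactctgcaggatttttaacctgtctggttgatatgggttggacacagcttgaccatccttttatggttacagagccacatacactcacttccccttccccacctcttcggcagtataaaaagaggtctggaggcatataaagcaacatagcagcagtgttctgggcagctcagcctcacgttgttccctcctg

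In the Cxcl10 promoter the capitals are, from 5′ to 3′, an ISRE core (−213 to −205), NF-kB (−159 to −150), DR1 (−148 to −136), NF-kB (−103 to −94), AP-1 (−74 to −68) and GATA (−22 to −17). In Pf4 they are C/EBP (−212 to −205), PU.1/ETS on the opposite strand (−10 to −3) and GATA within the transcript (37 to 42). In Ppbp they are DR5 on the opposite strand (−246 to −230) and AP-1 (−204 to −198). The Cxcl9 promoter, not printed, held an ISRE core (−175 to −167) and AP-1 within the transcript (32 to 38). NF-kB was thus matched in 4 of the 7 promoters against 4.51% of all 32851 promoters, the ISRE core in 2 against 8.56%, DR1 in 1 against 0.222% and DR5 in 1 against 0.0974%. AP-1 was matched in 3 against 7.81%, GATA in 2 against 11.2%, C/EBP in 1 against 10.8%, PU.1/ETS in 1 against 3.20%, and the GAS element in 0 against 8.30%. A match is a description of the sequence and does not show that a factor was bound.

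Beyond the promoters, 201 bases around the median summit were read from the genome for each region (+ strand). The 3 shown first are the strongest member region (Cxcl5), the strongest of the second cluster (Cxcl10) and the region with the lowest pileup difference (Cxcl1).
Cxcl5, 17.0 kb upstream, chr5:90742171-90742371: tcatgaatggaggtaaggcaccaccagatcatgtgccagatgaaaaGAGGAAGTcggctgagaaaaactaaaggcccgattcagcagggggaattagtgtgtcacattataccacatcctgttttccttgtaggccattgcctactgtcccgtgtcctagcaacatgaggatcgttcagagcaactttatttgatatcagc
Cxcl10, 4.85 kb upstream, chr5:92353712-92353912: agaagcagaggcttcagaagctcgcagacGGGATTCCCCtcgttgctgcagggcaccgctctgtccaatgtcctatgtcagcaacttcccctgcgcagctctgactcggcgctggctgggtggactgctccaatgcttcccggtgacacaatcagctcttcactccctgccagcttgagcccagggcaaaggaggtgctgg
Cxcl1, 9.41 kb upstream, chr5:90881675-90881875: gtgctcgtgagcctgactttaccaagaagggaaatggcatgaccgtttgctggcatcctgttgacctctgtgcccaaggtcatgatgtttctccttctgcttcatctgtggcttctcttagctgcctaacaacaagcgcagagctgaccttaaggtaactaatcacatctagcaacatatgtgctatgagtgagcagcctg

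The capitals are PU.1/ETS in the Cxcl5 window and NF-kB in the Cxcl10 window, and none of the 9 motifs was matched in the Cxcl1 window. The windows of 3 regions near Ppbp and Cxcl2 are shown because these were the regions called in both RXR-deficient libraries and in no control library. The capitals are AP-1 in the first and second and an ISRE core on the − strand in the third.
Ppbp, 2.56 kb upstream, chr5:90765856-90766056: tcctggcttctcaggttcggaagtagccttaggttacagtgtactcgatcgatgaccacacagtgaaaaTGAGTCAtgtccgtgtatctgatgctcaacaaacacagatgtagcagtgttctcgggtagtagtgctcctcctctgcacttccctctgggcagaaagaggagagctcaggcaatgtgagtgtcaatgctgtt
Cxcl2, 2.86 kb downstream of the TSS, chr5:90906606-90906806: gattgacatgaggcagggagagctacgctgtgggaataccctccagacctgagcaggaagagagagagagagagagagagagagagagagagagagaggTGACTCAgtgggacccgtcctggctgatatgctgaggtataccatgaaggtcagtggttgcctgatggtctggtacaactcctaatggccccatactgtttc
Cxcl2, 3.89 kb downstream of the TSS, chr5:90907717-90907917: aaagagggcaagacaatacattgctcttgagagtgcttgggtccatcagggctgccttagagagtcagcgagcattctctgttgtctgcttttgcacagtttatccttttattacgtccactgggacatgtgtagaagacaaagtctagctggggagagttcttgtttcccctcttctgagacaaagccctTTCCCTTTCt

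AP-1 was matched in 10 of the 29 windows (34.5%), against 12.7% of all 70744 windows of that length. These were 1 of the 10 windows of regions called in all 4 libraries (12.2% of all such windows) and 9 of the 19 windows of regions called in fewer (12.8% of all such windows). NF-kB was matched in 4 of 29 windows (3.42% of all windows), the ISRE core in 4 (7.29%), PU.1/ETS in 4 (9.33%), C/EBP in 6 (11.2%), GATA in 3 (6.45%) and the GAS element in 2 (5.57%). DR1 was matched in 1, at the Cxcl10 TSS (0.157%), and DR5 in none (0.155%).

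The number of regions differed between members. Cxcl1 had 8 regions, Cxcl2 6, Cxcl5 4, Cxcl3 and Cxcl11 3 each, Pf4 and Cxcl10 2 each, Ppbp 1 and Cxcl9 none. Cxcl15, a CXC ligand gene between Cxcl3 and Cxcl1 that is no member, had none either. The merged regions that covered the TSS of Pf4, Cxcl1, Cxcl2 and Cxcl10 were called in all 4 libraries, and no merged region covered the TSS of the other 5 members. Promoter-TSS regions were those with a midpoint at most 1 kb before or 200 bp after a TSS, and 5 member regions were of this kind. Of these, 4 were called in all 4 libraries, against 56.4% of all promoter-TSS regions. The other 24 lay outside exons. Those near Cxcl10 and Cxcl11 lay in introns of the long Art3 transcript, which runs over both genes on the opposite strand, and the rest were intergenic.

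**Figure D1:**
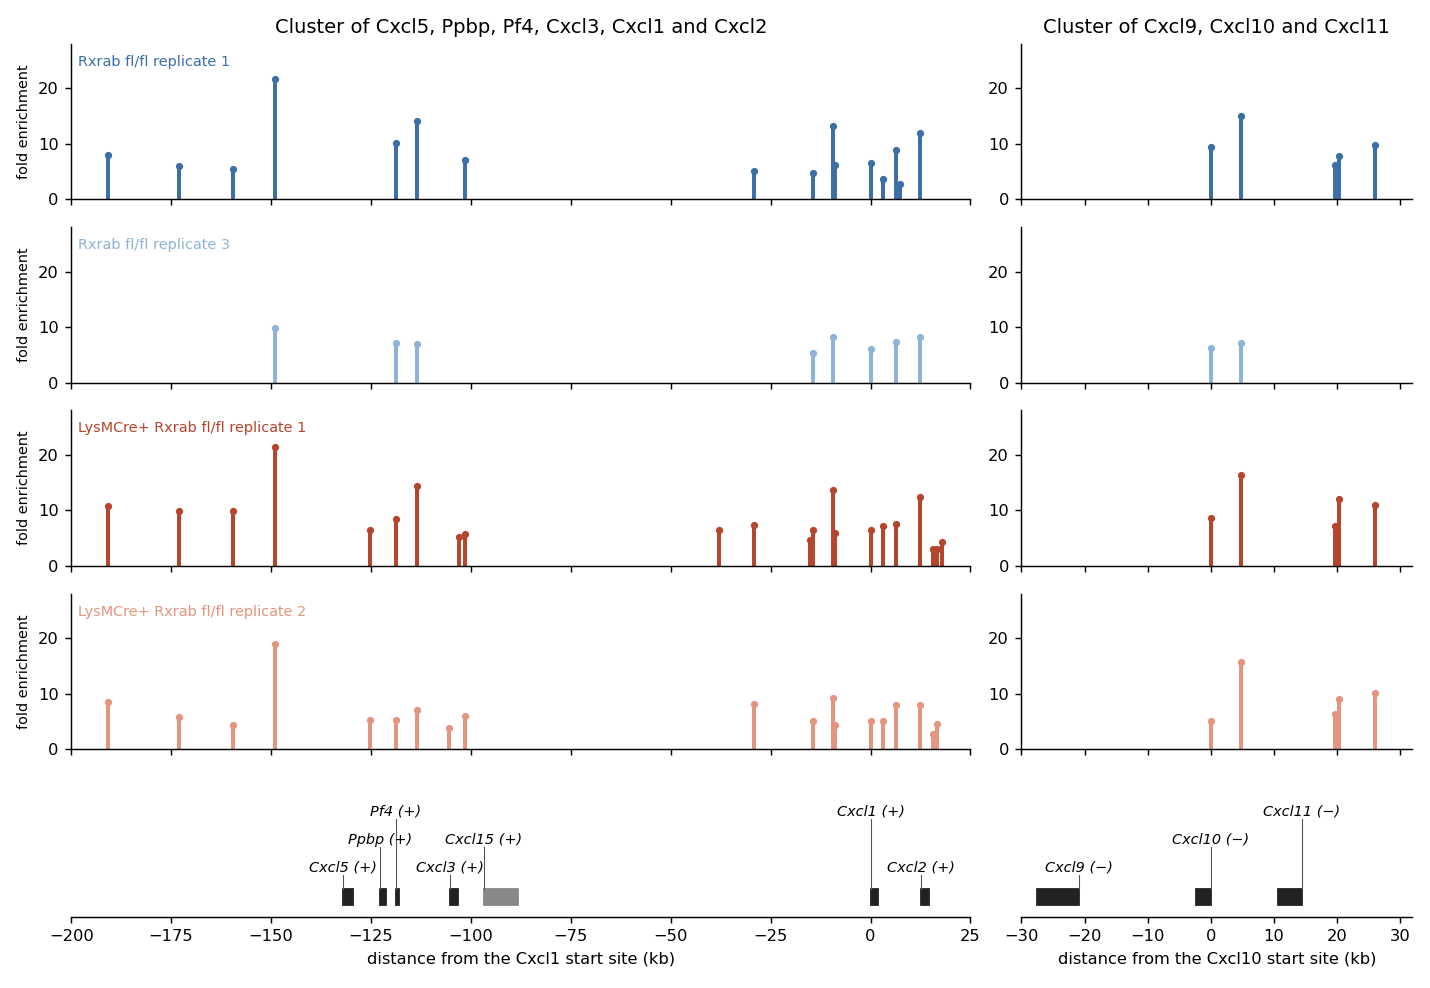
Fold enrichment (vertical axis) of each member region in each library, against its distance in kb from the Cxcl1 TSS (left) or the Cxcl10 TSS (right), with gene bodies and strands at the bottom; a region without a line was not called in that library. Control replicate 3 shows 10 member regions and the other libraries 21, 27 and 24, and the tallest line in every library is the region 17.0 kb upstream of Cxcl5.

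The libraries in which member regions were called were counted next. Of the 29 regions, 10 were called in all 4 libraries (34.5%), against 21.5% of all regions. A further 10 were missed only in control replicate 3 (34.5%), against 25.5% of all regions. Only 3 (10.3%) were called in both RXR-deficient libraries and in neither control library, against 22.8% of all regions, and 0 were called in both control libraries alone, against 0.0452%. The other 6 regions were called in 1 library each, 4 in RXR-deficient replicate 1, 1 in RXR-deficient replicate 2 and 1 in control replicate 1. The libraries held 21 and 10 member regions in control LPMs and 27 and 24 in RXR-deficient LPMs. Of all regions of the library these were 0.0571 and 0.0646% in control LPMs and 0.0421 and 0.0439% in RXR-deficient LPMs. For either quantity the genotypes did not overlap, and the two-sided exact permutation test gave p = 0.333, the smallest that 2 against 2 libraries allow. The count in both RXR-deficient libraries alone followed the libraries used. It was 13 of 28 without control replicate 1 (46.4%), against 49.2% of all regions then, and 7 of 28 without RXR-deficient replicate 2, against 44.3%. It was 0 of 11 when the 16097 peaks of lowest q value were taken from each library, against 7.82%.

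**Figure D2:**
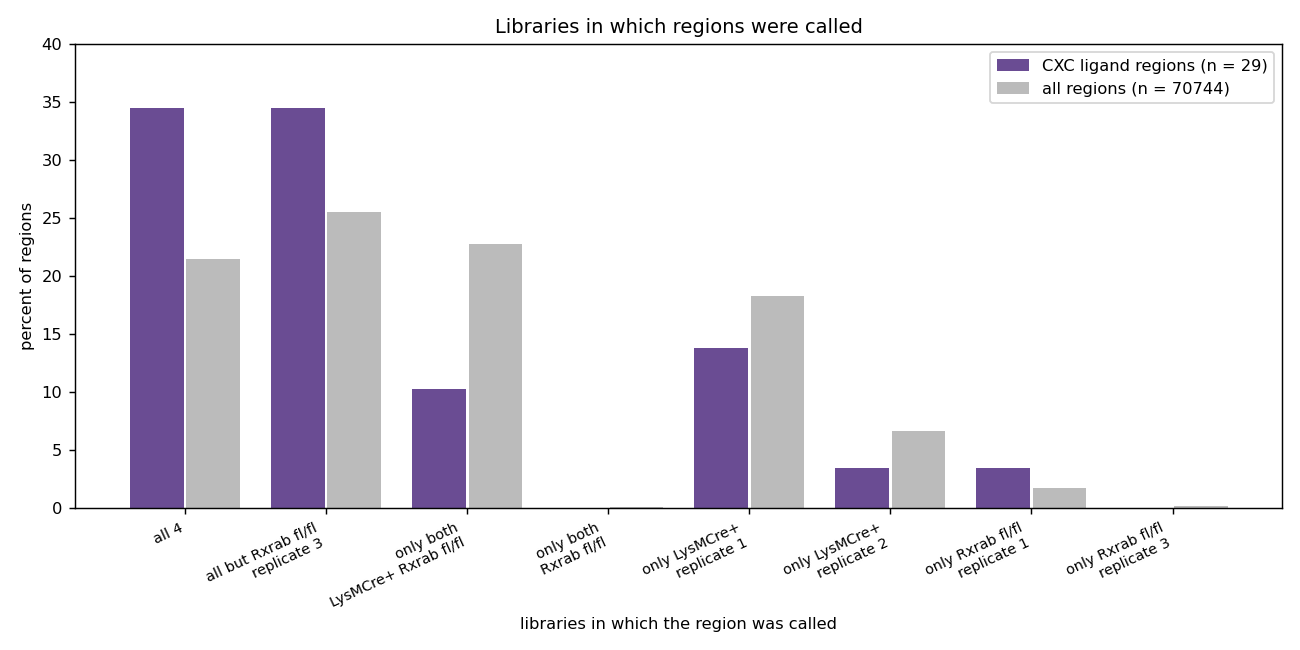
Percent of regions (vertical axis) by the libraries in which they were called, for the 29 CXC ligand regions and for all 70744 regions. Member regions were called in all 4 libraries in 34.5% against 21.5% of all regions, and only in both RXR-deficient libraries in 10.3% against 22.8%.

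The strength of regions shared by the 4 libraries was compared between genotypes with limma, on log2 fold enrichment minus the median of the library, and a region passed at an adjusted p (Benjamini-Hochberg) under 0.05 with a log2 difference past 1. The library medians of fold enrichment were 14.5 and 7.52 in control LPMs and 15.1 and 12.0 in RXR-deficient LPMs. None of the 10 member regions passed, against 0.0855% of 15199 regions tested (7 lower and 6 higher in RXR-deficient LPMs, or 2 and 9 under quantile normalization). At an unadjusted p under 0.05 there were 2 of the 10 member regions, at the TSS of Pf4 and Cxcl10, against 22.0% of all regions, and in the pileup described next there were 6 of the 10, against 33.2%. The log2 difference, RXR-deficient minus control, was negative in 8 of 10 member regions, with a median of −0.35. Over all regions it was negative in 59.0%, with a median of −0.09. Without centring the median of all regions was 0.28 and that of the member regions 0.01. The member median was −0.66 without control replicate 1 and −0.20 without RXR-deficient replicate 2, against −0.15 and −0.10 over all regions. With equal numbers of peaks, 3 member regions were tested, with a median of 0.10, against −0.05 over all regions. When the pileup was tested in the same way, 1 of the 10 member regions passed as lower in RXR-deficient LPMs and none as higher, against 4.98% of 15196 regions called lower. By the adjusted p alone, 2 member regions were lower, against 7.90% of regions. By the adjusted p alone, no member region differed in fold enrichment. Without control replicate 1, 6 of the 10 were lower by the adjusted p alone, against 20.4% of 15231 regions, and none was past 1. That fit has 1 control library, so that its spread comes from the RXR-deficient pair and the lone library is assumed to vary like it, and the count was 0 of 20 without control replicate 3 and 0 of 10 without either RXR-deficient library. The pileup differences of the member regions had a median of −0.70, against −0.10 over all regions.

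Whether the genotypes overlapped was read on the centred values. In fold enrichment, both control libraries lay above both RXR-deficient libraries in 5 of 10 member regions, against 32.9% of all regions tested, and the reverse held in 1, against 22.3%. In the pileup these were 7 of 10, against 36.9%, and 0, against 25.2%. The member regions were spread less in control replicate 3, where the SD of their centred log2 fold enrichment was 0.26, against 0.63 in control replicate 1 and 0.60 and 0.69 in RXR-deficient LPMs. Over all 15199 regions the SD was 0.54 in control replicate 3, against 0.56 in control replicate 1 and 0.58 and 0.58 in RXR-deficient LPMs.

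**Figure D3:**
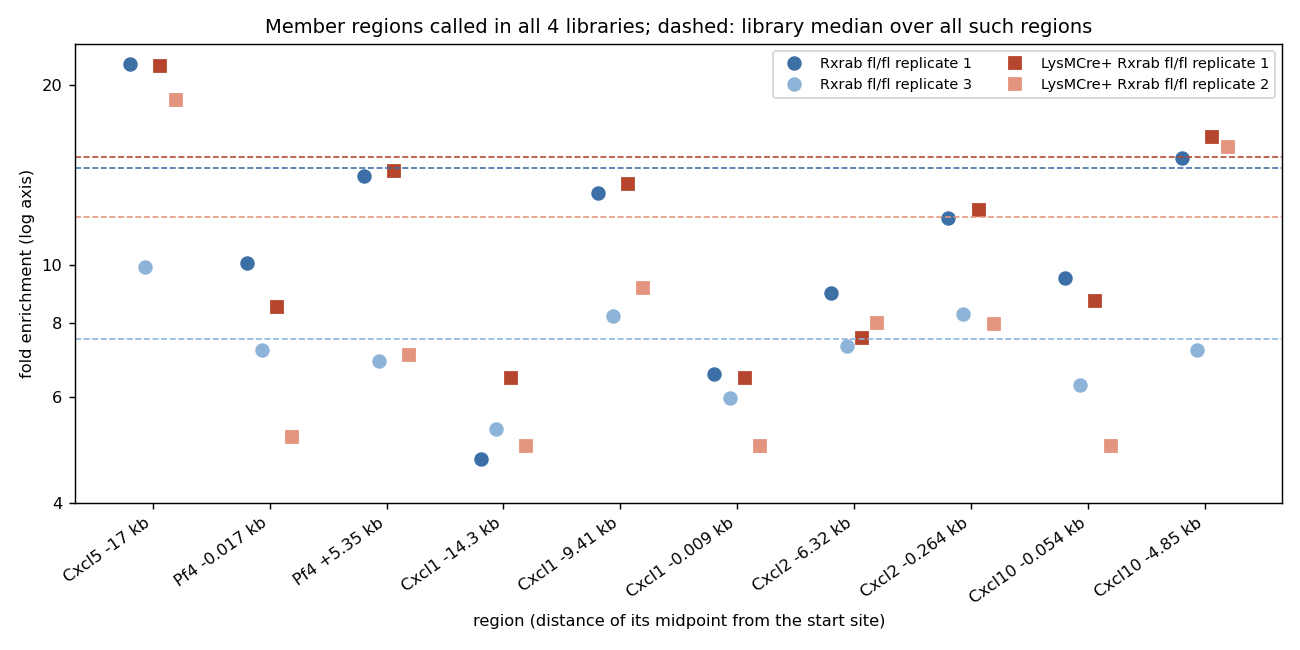
Fold enrichment (log axis) of the 10 member regions called in all 4 libraries, with 1 point per library and, dashed, the median of each library over all 15199 such regions. The Cxcl5 region 17.0 kb upstream is above the median of its library in all 4, and both Cxcl1 regions other than that 9.41 kb upstream are below it in all 4.

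Cxcl1, a neutrophil attractant induced early in inflammation (chr5:90891245-90893121, + strand, 4 exons), had the most regions. At its TSS (chr5:90890867-90891604) the fold enrichment was 6.57 and 5.98 in control LPMs and 6.47 and 4.98 in RXR-deficient LPMs. The pileup was 66 and 21 in control LPMs and 51 and 29 in RXR-deficient LPMs. Relative to the library median, both measures were higher in both control libraries than in either RXR-deficient library. The log2 difference was −0.51 ± 0.26 (SE) in fold enrichment (adjusted p = 0.267, limma) and −0.82 ± 0.27 in the pileup (adjusted p = 0.0722), and neither passed. With 1 library left out, the difference in fold enrichment was −0.92 to −0.44.

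The region 9.41 kb upstream of Cxcl1 (chr5:90881567-90882105, intergenic) was the stronger one. Its fold enrichment was 13.2 and 8.20 in control LPMs and 13.7 and 9.14 in RXR-deficient LPMs, and its pileup 126 and 29 in control LPMs and 79 and 35 in RXR-deficient LPMs. As a multiple of the library median, the pileup was 1.30 and 1.45 in control LPMs and 0.798 and 0.538 in RXR-deficient LPMs, so the genotypes did not overlap. This was the member region that passed the test on the pileup, which fell by 1.07 ± 0.26 on the log2 scale (SE, adjusted p = 0.0349, limma). In fold enrichment the log2 difference was −0.27 ± 0.22 (adjusted p = 0.484), and 0.10 without centring. With 1 library left out, it was −0.47 to −0.14. The local background by which MACS2 divides was 8.62 and 2.66 tags in control LPMs and 4.86 and 2.94 in RXR-deficient LPMs, and its percentile among regions called in all 4 libraries was 72.7 and 79.1 against 40.6 and 26.0. The pileup and the local background were thus both higher in rank in control LPMs, and the fold enrichment is their ratio.

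A region 14.3 kb upstream of Cxcl1 (chr5:90876639-90877270) was also called in all 4 libraries. Its fold enrichment was 4.74 and 5.31 in control LPMs and 6.47 and 4.97 in RXR-deficient LPMs, and its pileup 41 and 18 against 36 and 16. It was the weakest of the 10 by mean log2 fold enrichment, at percentile 2.03 of all regions called in all 4. The log2 difference was −0.19 ± 0.30 in fold enrichment (adjusted p = 0.732, limma), 0.03 without control replicate 3 and −0.75 without control replicate 1, and −1.04 ± 0.36 in the pileup (adjusted p = 0.0856). Of its other regions, those 29.2 and 8.88 kb upstream and 3.17 kb downstream of the TSS were missed only in control replicate 3. The last of these, past the end of the gene, had a fold enrichment of 3.60 in control replicate 1 and of 7.16 and 5.04 in RXR-deficient LPMs. Those 37.8 and 15.0 kb upstream were called only in RXR-deficient replicate 1, with a fold enrichment of 6.45 and 4.60.

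Cxcl2, a second ligand of Cxcr2 (chr5:90903899-90905938, + strand, 4 exons), had the member region with the highest pileup. In the region at its TSS (chr5:90903228-90904042) the pileup was 286 and 57 in control LPMs and 166 and 84 in RXR-deficient LPMs. As a multiple of the library median this was 2.95 and 2.85 in control LPMs and 1.68 and 1.29 in RXR-deficient LPMs. The control libraries were close to each other and both above the other genotype, and the log2 difference was −0.98 ± 0.23 (SE, adjusted p = 0.0343, limma), past the limit on p but not that of 1 on the difference. The fold enrichment was 12.0 and 8.26 in control LPMs and 12.3 and 7.97 in RXR-deficient LPMs, with a log2 difference of −0.37 ± 0.23 (adjusted p = 0.345), and of −0.58 to −0.22 with 1 library left out. The local background was again high, at 11.6 and 5.68 times the lowest of the library in control LPMs and 9.45 and 8.95 times in RXR-deficient LPMs. The medians over all regions called in all 4 libraries were 2.94 and 1.70 against 4.28 and 4.10. In percentile this background was at 97.6 and 98.3 in control LPMs and 87.4 and 86.8 in RXR-deficient LPMs.

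The region 6.32 kb upstream of Cxcl2 (chr5:90897333-90897817), which lies between Cxcl1 and Cxcl2, had a fold enrichment of 8.96 and 7.32 in control LPMs and of 7.55 and 7.98 in RXR-deficient LPMs. Its pileup was 123 and 29 in control LPMs and 70 and 59 in RXR-deficient LPMs. The genotypes overlapped in centred fold enrichment (log2 difference −0.43 ± 0.25 (SE), adjusted p = 0.332, limma) and did not in the pileup (−0.76 ± 0.24, adjusted p = 0.0639). With 1 library left out, the difference in fold enrichment was −0.76 to −0.22. Downstream of the gene, the regions 2.86 kb (chr5:90906630-90906891) and 3.89 kb (chr5:90907380-90908199) from the TSS were called only in RXR-deficient LPMs. Their fold enrichment in replicates 1 and 2 was 3.02 and 2.74, and 2.95 and 4.57. These are low values, since 7.22 to 8.13 were the medians over all peaks of those libraries. A region 5.25 kb downstream of the TSS was called only in RXR-deficient replicate 1 (4.29), and one 5.27 kb upstream only in control replicate 1 (2.79).

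Cxcl3, the third of these closely related ligands (chr5:90786101-90788093, + strand, 4 exons), had no region called in all 4 libraries, and its promoter holds an NF-kB match as well. The region nearest to its TSS (chr5:90785679-90785901) ended 0.20 kb before it and was called only in RXR-deficient replicate 2, with a fold enrichment of 3.79 and a pileup of 10. By q value this peak was at percentile 1.58 of its library. The strongest Cxcl3 region, 3.57 kb downstream of the TSS (chr5:90789352-90789985), was missed only in control replicate 3 and had 7.06 in control replicate 1 and 5.79 and 5.90 in RXR-deficient LPMs. A region just past the end of the gene, 2.14 kb from the TSS, was called only in RXR-deficient replicate 1 (5.25).

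Cxcl5, the ligand gene at the outer end of the first cluster (chr5:90759298-90761625, + strand, 4 exons), had no region within 6.50 kb of its TSS, yet it had the strongest region of all members. This region, 17.0 kb upstream (chr5:90741998-90742502, intergenic), had a fold enrichment of 21.7 and 9.92 in control LPMs and of 21.5 and 18.9 in RXR-deficient LPMs. Its mean log2 fold enrichment was at percentile 86.9 of all regions called in all 4 libraries. The genotypes overlapped, with a log2 difference of 0.09 ± 0.21 (SE, adjusted p = 0.831, limma), −0.34 without control replicate 3. The pileup was 123 and 23 in control LPMs and 90 and 62 in RXR-deficient LPMs, with a log2 difference of −0.37 ± 0.22 (adjusted p = 0.259). The sign of the difference thus depended on the measure. The 3 other Cxcl5 regions, 27.6, 41.1 and 58.9 kb upstream, were each missed only in control replicate 3. They had 5.39, 6.06 and 8.06 in control replicate 1, 9.89, 9.89 and 10.8 in RXR-deficient replicate 1 and 4.33, 5.77 and 8.51 in RXR-deficient replicate 2. The genes whose regions had centred fold enrichments most like those of the Cxcl5 region over the 4 libraries were Zfp382, Tle3 and C030005K06Rik, at Euclidean distances of 0.0729, 0.0801 and 0.0873 in log2 units.

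Pf4, which encodes platelet factor 4 (chr5:90772435-90773383, + strand, 3 exons), had a called TSS in all 4 libraries, although the 6 other megakaryocyte or platelet markers (such as Itga2b, Gp1ba and Gp9) had none. At the TSS (chr5:90772113-90772722) the fold enrichment was 10.1 and 7.20 in control LPMs and 8.50 and 5.16 in RXR-deficient LPMs. As a multiple of the library median this was 0.694 and 0.958 in control LPMs and 0.562 and 0.429 in RXR-deficient LPMs, without overlap. The log2 difference of −0.73 ± 0.24 (SE) was the largest of the 10 in fold enrichment and did not pass (adjusted p = 0.112, limma). With 1 library left out it was −0.96 to −0.54. In the pileup, 54 and 16 in control LPMs and 59 and 31 in RXR-deficient LPMs, the genotypes overlapped, with a log2 difference of −0.32 ± 0.26 (adjusted p = 0.412). Its local background was at percentile 32.7 and 24.7 in control LPMs and 54.0 and 59.4 in RXR-deficient LPMs, the reverse of the order at Cxcl1 and Cxcl2.

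The other Pf4 region, 5.35 kb downstream of the TSS (chr5:90777522-90778039), had a fold enrichment of 14.1 and 6.90 in control LPMs and of 14.4 and 7.08 in RXR-deficient LPMs. Its pileup was 72 and 15 in control LPMs and 115 and 44 in RXR-deficient LPMs. As a multiple of the library median, the fold enrichment was 0.971 and 0.917 in control LPMs and 0.949 and 0.589 in RXR-deficient LPMs. On this centred scale the RXR-deficient libraries differed from each other more than the genotype means did. The log2 difference was −0.34 ± 0.25 in fold enrichment (SE, adjusted p = 0.434, limma) and 0.25 ± 0.28 in the pileup (adjusted p = 0.571). With 1 library left out, that in fold enrichment was −0.712 to 0.0089. Ppbp, the precursor of platelet basic protein and of neutrophil-activating peptides (chr5:90768518-90770063, + strand, 3 exons), had a single region, 2.56 kb upstream (chr5:90765803-90766115). It was called only in RXR-deficient LPMs, with a fold enrichment of 6.45 and 5.29 and a pileup of 14 and 10. The lowest pileup called as a peak was 8 and 6 in control LPMs and 6 and 6 in RXR-deficient LPMs, so absence from the lists of control LPMs does not show closed chromatin.

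Cxcl10, the interferon-induced ligand of Cxcr3 (chr5:92346638-92348889, − strand, 4 exons), was the only gene of the second cluster with regions in all 4 libraries. At its TSS (chr5:92348762-92349124) the fold enrichment was 9.50 and 6.30 in control LPMs and 8.69 and 4.98 in RXR-deficient LPMs, and the pileup 60 and 14 against 44 and 26. Relative to the library median, both measures were higher in both control libraries. The log2 differences were close in size, −0.60 ± 0.23 in fold enrichment (SE, adjusted p = 0.165, limma) and −0.64 ± 0.22 in the pileup (adjusted p = 0.0848), and neither passed. With 1 library left out, that in fold enrichment was −0.84 to −0.37. The region 4.85 kb upstream (chr5:92353485-92353989, Art3 intron) lay the other way. Its fold enrichment was 15.1 and 7.20 in control LPMs and 16.3 and 15.7 in RXR-deficient LPMs, and its pileup 89 and 16 against 83 and 83. It was the member region in which centred fold enrichment was higher in both RXR-deficient libraries. The log2 difference was 0.25 ± 0.21 in fold enrichment (adjusted p = 0.500), −0.14 without control replicate 3, and 0.27 ± 0.26 in the pileup (adjusted p = 0.500).

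Cxcl11 (chr5:92359544-92363296, − strand, 4 exons), which the RefSeq annotation of this C57BL/6J genome lists as a non-coding transcript, had no region at its TSS. Its 3 regions lay 5.33, 5.99 and 11.6 kb upstream in Art3 introns and were each missed only in control replicate 3. The strongest, 11.6 kb upstream (chr5:92374651-92375174), had a fold enrichment of 9.77 in control replicate 1 and of 11.0 and 10.1 in RXR-deficient LPMs. In the region 5.99 kb upstream the values were 7.73 against 12.1 and 9.09, and in that 5.33 kb upstream 6.22 against 7.23 and 6.25. In each of the 3, RXR-deficient LPMs were higher before any scaling, with 1 control library to compare. Cxcl9 (chr5:92321331-92328079, − strand, 4 exons), induced mainly by interferon gamma, had no region in any library. The closest called region began 3.12 kb from its TSS, was nearest to the Art3 TSS, and was called only in RXR-deficient replicate 1. Another region nearest to the Art3 TSS (chr5:92332111-92333022) was missed only in control replicate 3. Its fold enrichment was 5.05 in control replicate 1 and 8.09 and 6.80 in RXR-deficient LPMs.

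**Figure D4:**
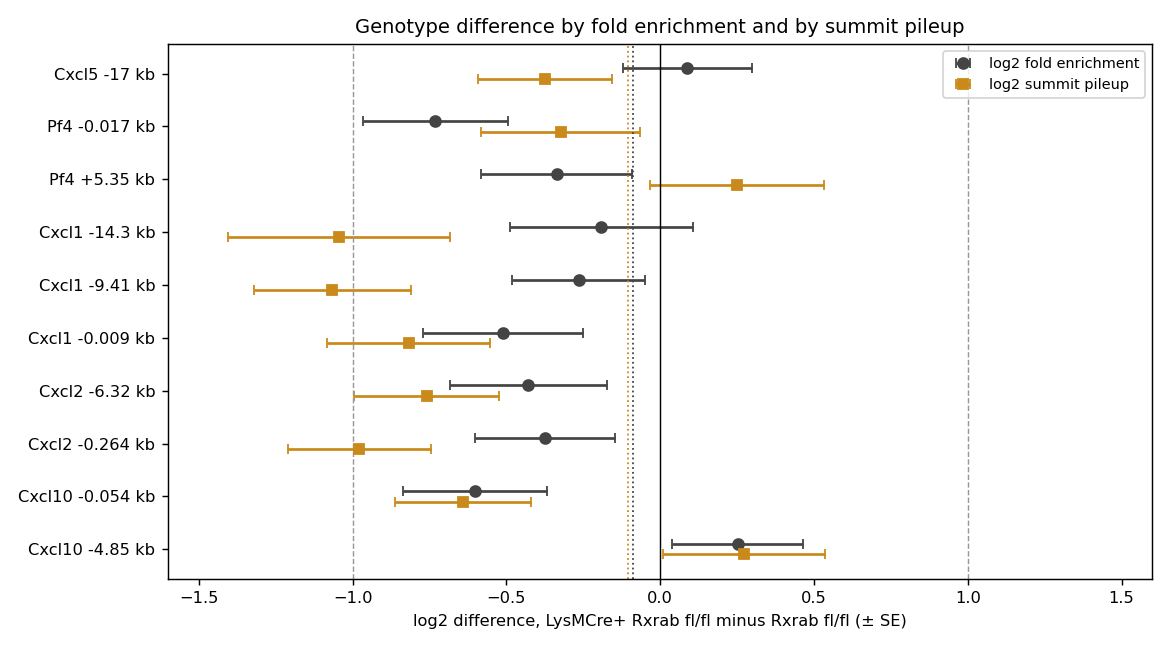
Log2 difference between genotypes (horizontal axis, RXR-deficient minus control, bars ± SE) for the 10 member regions by fold enrichment and by summit pileup, with dashed lines at −1 and 1 and dotted lines at the medians of all regions tested. The pileup differences at Cxcl1 and Cxcl2 lie between −1.07 and −0.76, left of those in fold enrichment, whereas those at Pf4 lie to the right.

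The 4 regions at a TSS had log2 differences in fold enrichment of −0.73 to −0.37 (median −0.56), and the 6 others of −0.43 to 0.25 (median −0.23). Over all regions tested, the median was −0.18 in promoter-TSS and 0.00061 elsewhere, so the member regions at a TSS lay on the side to which promoters as a whole were shifted. The 6 regions of the ELR ligands had a median of −0.32 in fold enrichment and of −0.90 in the pileup, in which all 6 were negative, against 57.1% of all regions. The 2 regions of Pf4 had −0.53 and −0.04, and the 2 of Cxcl10 had −0.18 in both. Among the LPM markers, 15 regions were tested, with a median of −0.14 in fold enrichment and of −0.35 in the pileup. Of these, 12 were negative in the pileup. There 1 passed as lower, 18.4 kb upstream of the F5 TSS (−1.24 ± 0.33 (SE), adjusted p = 0.0441, limma). The 10 member regions missed only in control replicate 3 were weaker than those called in all 4. In control replicate 1 their pileup was 15 to 58 (median 27.5), against 41 to 286 (median 80.5).

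The genes around these ligands in the pathway were read beside the shares over all regions tested. Of these, 0.0855% passed in fold enrichment and 4.98% passed as lower in the pileup. At the first share, none passing in a short list is no result about its genes. Among 6 other CXC ligand genes (Cxcl12 to Cxcl17), 5 regions were tested and none passed in fold enrichment or in the pileup. Among 8 CXC receptor genes, none of 8 regions passed in fold enrichment and 1 was lower in the pileup, 85.2 kb downstream of the TSS of Ackr3, a scavenger of Cxcl12 and Cxcl11 (−1.41 ± 0.22 (SE), adjusted p = 0.0183, limma). Cxcr1, Cxcr2 and Cxcr3, through which the ELR ligands and those of the second cluster signal, had no region called in all 4 libraries. Cxcr2 had 4 regions and Cxcr1 1, all called in an RXR-deficient library and in no control library (47.8% of all regions, and 8 of the 29 member regions), and 3 of the 4 Cxcr2 regions in RXR-deficient replicate 1 alone. Cxcr3 lies on the X chromosome, whose reads were removed. Among 14 regulators of the NF-kB, IRF and STAT families and Cebpb, 13 had a called TSS in all 4 libraries. None of their 28 regions passed in fold enrichment. At an unadjusted p under 0.05 (limma) there were 13 of the 28, against 22.0% of all regions. The log2 difference was negative in 20 (71.4%), against 59.0% of all regions, with a median of −0.30 against −0.09. In the CC ligand cluster on chromosome 11, which holds 11 genes such as Ccl2 and Ccl3, 21 of 58 regions were called in all 4 libraries (36.2%), and 12 in both RXR-deficient libraries and no control library (20.7%). None of the 21 passed in either measure, with medians of −0.21 in fold enrichment and 0.01 in the pileup.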

How the data were processed

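ATAC-seq peak lists of 4 LPM libraries were used. Following the study's methods, the authors trimmed adaptors, aligned reads to mm10 with Bowtie2, discarded duplicates, low-quality alignments, blacklisted regions and the X, Y and mitochondrial chromosomes, and ran MACS2 2.1.1 on each library alone. The deposited lists give each peak's fold enrichment, a ratio to the local background, the −log10 of its p-value and q-value, and its summit offset; the deposited score was not used. No peak ended past a chromosome of the GRCm38.p6 genome (RefSeq), whose 45756 NM or NR transcripts of 26180 genes placed the regions. Where a library had several peaks in a region, that of highest fold enrichment was used. The pileup was solved with MACS2's pseudocount of 1 and failed for 3 of 175147 peaks. limma 3.58.1 (lmFit and eBayes, R 4.3.3) was fitted over all regions called in all 4 libraries, and was tested on simulated data, as was the motif search. Read counts are not analysed here, so the authors' edgeR test was not repeated. The pileup test of the list of regulators is not reported here. Scripts used Python 3.11.15 with numpy 2.4.6, pandas 2.3.3, scipy 1.17.1 and pysam 0.24.0.

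All 9 members are named. For each, values are given for the region at or nearest to its TSS, its strongest region and every region called in all 4 libraries. The members, the gene lists and the tests were chosen with earlier results of these data known. The alternatives were a q value of 0.01, equal numbers of peaks, summits widened by 100 bp, each library left out, assignment by nearest TSS alone, other scalings, the pileup, regions that 2 or more libraries share, an eBayes trend and the adjusted p alone.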

Additional observations from a re-analysis of the deposited data

How the results depend on the processing

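The number of member regions found in both LysMCre+ Rxrab fl/fl libraries alone was 3, and it stayed within 1.5 times of this with a q value of 0.01, with peaks reduced to summits and with assignment by nearest TSS alone. It was 0 with the same number of peaks per library, and 3 to 13 when 1 library was left out (13 without Rxrab fl/fl replicate 1, 7 without LysMCre+ Rxrab fl/fl replicate 2). The number of member regions past the limma threshold was 0, also without each library in turn, and 1 with the summit pileup, near Cxcl1 (−1.07). By the adjusted p alone it was 0, and 6 without Rxrab fl/fl replicate 1, where the lone control library is assumed to vary like the other genotype, a combination chosen after seeing the data. Over all regions limma called 13. It called 41 with equal numbers of peaks, 0 without centring, 1136 on the pileup, 2887 over regions that 2 or more libraries share and 137 with a mean-variance trend, and 789 and 1182 without Rxrab fl/fl replicates 1 and 3.

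Of 113 log2 differences of member regions under an alternative, 9 changed sign and none of these passed the threshold. Without centring, the difference was 0.0319 at Pf4 5.35 kb downstream, and 0.177 and 0.103 at Cxcl1 14.3 and 9.41 kb upstream. On the summit pileup it was −0.375 at Cxcl5 17.0 kb upstream and 0.249 at Pf4 5.35 kb downstream. With 1 library left out, the range was −0.336 to 0.179 at the Cxcl5 region, −0.712 to 0.0089 at that of Pf4, −0.746 to 0.0304 at Cxcl1 14.3 kb upstream and −0.142 to 0.393 at Cxcl10 4.85 kb upstream. In the 4 regions at a TSS and that 6.32 kb upstream of Cxcl2 the sign changed under none of the alternatives that gave a value, but without centring the difference was −0.00513 at the Cxcl2 TSS, −0.0607 at the Cxcl2 region upstream, −0.142 at the Cxcl1 TSS, −0.234 at the Cxcl10 TSS and −0.363 at the Pf4 TSS. The causes were not tested.

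No paired analysis was possible because the genotypes share only replicate number 1. With 2 libraries per genotype and 20 tags at the median summit of Rxrab fl/fl replicate 3, weak regions missed there cannot be called closed. The call rule leaves out every log2 difference under 1, such as that of the pileup at the Cxcl2 TSS (−0.98).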
